A study of Mus musculus with 12 samples.

Results

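The genes described are 9 of the 55421 gene rows in an RNA-seq count table of mouse stomach organoids, taken by their symbols. Of these, 4 are textbook targets of the transcriptional co-activator YAP (Ccn1, Ccn2, Ankrd1 and Amotl2), and 5 are genes known from regenerating or fetal-like epithelium (Ly6a, Clu, Anxa1, Anxa3 and Il33). All 9 were found once each, all 9 passed the filter on low counts that left 16152 genes for testing, and they were taken by symbol with no threshold on a value. Their values across region and treatment are given as CPM, the count of a gene scaled to a common library total.

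YAP and its relative TAZ carry the output of the Hippo pathway. When the Hippo kinases are active they keep YAP and TAZ out of the nucleus, and when the kinases are quiet YAP and TAZ bind TEAD transcription factors at target genes such as Ccn1 and Ccn2. In injured gut epithelium, YAP is known to accompany a switch from Wnt-driven stem cell genes to a fetal-like set that includes Ly6a, Clu and annexins, while Il33 encodes an alarmin, a nuclear cytokine set free by damaged cells. RNA shows neither the amount nor the place of YAP protein.

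The organoids were 3-dimensional epithelial cultures grown in Matrigel from gastric glands of wild-type (WT) mice, passaged several times, and the RNA was polyA-selected. The 12 libraries form 4 groups of 3: inhibited corpus, vehicle corpus, inhibited antrum and vehicle antrum, where corpus is the body and antrum the outlet end of the stomach. Inhibited organoids were treated with XAV939 (1 mM as labelled), which blocks tankyrase and so dampens Wnt signalling, lost the added Wnt and R-spondin, and were given 100 ng/mL of Noggin-1, which binds and blocks bone morphogenetic proteins. Vehicle organoids received DMSO and stayed in normal medium, 50% of which was L-WRN conditioned medium, a source of Wnt, R-spondin and Noggin. Organoids were treated for 24 h from day 4 after passage. The ROCK inhibitor Y-27632 was present only in the medium used at plating, per the labels' protocols. Corpus organoids grew in 20% serum and antral ones in 10%, and the serum of the inhibited medium is not stated. Compound, medium and any change in serum therefore cannot be told apart within a region, nor can region and serum between regions. Each region was represented by organoid lines 8025, 8026 and 8028, described as independent, each treated both ways; nothing says whether a shared number marks the same mouse in both regions. The lines are the replicates, and the p-values measure the spread between these lines.

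Library totals ran from about 18858000 to 31656700 counts, so that 3 counts, the most a reading of 0 allows, equal 0.0889 to 0.177 CPM. The Wnt target Lgr5 averaged 1.00 ± 0.781 CPM in inhibited and 48.2 ± 5.05 CPM in vehicle corpus, and 1.4998 ± 0.298 CPM in inhibited and 45.0 ± 4.51 CPM in vehicle antrum (SD, n = 3 each). Genes resembling ribosomal RNA held 17.2% of all counts in line 8025 and 6.87% in line 8028 of the antral vehicle group, against 0.839% to 3.45% elsewhere. The 9 genes together held 0.650% to 1.14% of a library, of which Clu alone held 0.434% to 0.893%.

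The first question was how the YAP targets answered 24 h of Wnt inhibition. Ccn2 and Ccn1 fell in both regions and in every line. In the unblocked fit of all libraries, Ankrd1 fell in corpus, and Amotl2 did not pass in either region. When the line was taken as a block, which compares each line with itself, Amotl2 passed in both regions and Ankrd1 in antrum too. Of the 9 genes, 5 passed an adjusted p of 0.05 in corpus (1 higher, 4 lower), where 30.9% of all tested genes did (15.5% higher, 15.4% lower). In antrum 4 passed (1 higher, 3 lower), where 29.7% of all genes did (16.3% higher, 13.4% lower). The tests were edgeR's quasi-likelihood test with Benjamini-Hochberg adjustment over all 16152 genes. With the line as a block 2 of the 9 were higher and 6 lower in each region, against 19.8% of all genes higher and 23.7% lower in corpus and 20.6% higher and 20.2% lower in antrum. Of the genes called, 50.1% were higher in corpus and 55.0% in antrum, or 26.4% and 44.4% when scaled by total counts. In bulk organoids, fewer cells of a type and less RNA per cell cannot be told apart.

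Ccn2 (GRCm38 chr10:24595442-24598683, plus strand) encodes CTGF, a secreted matricellular protein and a classic YAP and TEAD target. In corpus it stood at 115, 98.2 and 76.3 CPM in the inhibited libraries of lines 8025, 8026 and 8028, against 355, 358 and 292 CPM in vehicle. In antrum the inhibited libraries held 95.7, 77.2 and 71.0 CPM, against 373, 275 and 277 CPM in vehicle. The highest inhibited library lay far below the lowest vehicle library in both regions. The log2 change was -1.80 ± 0.174 (SE) in corpus, a 3.48-fold lower level, and -1.92 ± 0.175 in antrum, a 3.79-fold lower level (edgeR adjusted p 2.8e-05 and 1.8e-05). An antisense transcript, Gm15270, overlaps an exon of Ccn2 and held at most 57 counts in any library; their reads cannot be told apart, since counting by strand is not given in the sources used here.

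Ccn1 (chr3:145646976-145649981, minus strand) encodes CYR61, the sister protein of CTGF. Corpus libraries held 34.6, 29.1 and 29.3 CPM when inhibited, against 90.1, 86.8 and 65.3 CPM in vehicle. Antral libraries held 35.3, 31.3 and 27.6 CPM when inhibited, against 88.3, 69.3 and 61.4 CPM in vehicle. Inhibited libraries of the regions covered the same narrow range, and no inhibited library reached any vehicle library. Ccn1 fell by 1.38 ± 0.158 on the log2 scale in corpus and by 1.21 ± 0.158 in antrum (edgeR adjusted p 8.4e-05 and 0.000197). Ccn1 and Ccn2 kept their calls in all alternative fits, 24 for corpus and 25 for antrum.

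Ankrd1 (chr19:36111961-36120099, minus strand), a nuclear ankyrin repeat protein best known from heart muscle, was the least abundant of the 9 per kilobase of exon. Inhibited corpus libraries held 6.63, 9.89 and 9.86 CPM, against 11.4, 21.7 and 15.1 CPM in vehicle. Inhibited antral libraries held 14.4, 11.7 and 9.46 CPM, against 18.9, 12.5 and 13.98 CPM in vehicle. The corpus groups lay apart and the antral groups overlapped, although each antral line held less when inhibited. Ankrd1 fell by 0.87 ± 0.260 on the log2 scale in corpus (edgeR adjusted p 0.0258) and changed by -0.34 ± 0.259 in antrum (adjusted p 0.345). The corpus call was lost without inhibited line 8025 (adjusted p 0.100), vehicle line 8026 (0.115) or vehicle line 8028 (0.0532), without both libraries of line 8026 (0.143) or 8028 (0.0513), and with only the 6 corpus libraries (0.0604). With the line as a block, which compares each line with itself, the antral value was -0.35 and passed (adjusted p 0.0492), a call lost with the block under DESeq2-type scaling (0.0536) and without antral line 8025 (0.199) or 8028 (0.247).

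Amotl2 (chr9:102716672-102733418, plus strand) encodes an angiomotin, a junction protein that holds YAP back, and is itself switched on by YAP. In corpus it stood at 71.5, 60.2 and 42.9 CPM when inhibited, against 78.4, 69.1 and 51.5 CPM in vehicle, and the groups overlapped. In antrum it stood at 53.2, 47.1 and 43.0 CPM when inhibited, against 69.5, 59.9 and 57.4 CPM in vehicle, and the groups did not overlap. The log2 change was -0.19 ± 0.186 in corpus and -0.38 ± 0.187 in antrum (edgeR adjusted p 0.479 and 0.151), with 95% intervals of -0.60 to 0.22 and -0.79 to 0.03. Each of the 6 lines held less Amotl2 when inhibited, with log2 ratios of -0.26 to -0.13 in corpus and -0.42 to -0.35 in antrum. With the line as a block it passed in both (adjusted p 0.0163 and 0.000449). The blocked corpus call was lost without line 8026 (0.0865) or 8028 (0.0857), the unblocked corpus value was 0.02 without inhibited line 8028, and with only the 6 antral libraries the unblocked antral value passed (0.0210).

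**Figure D1:**
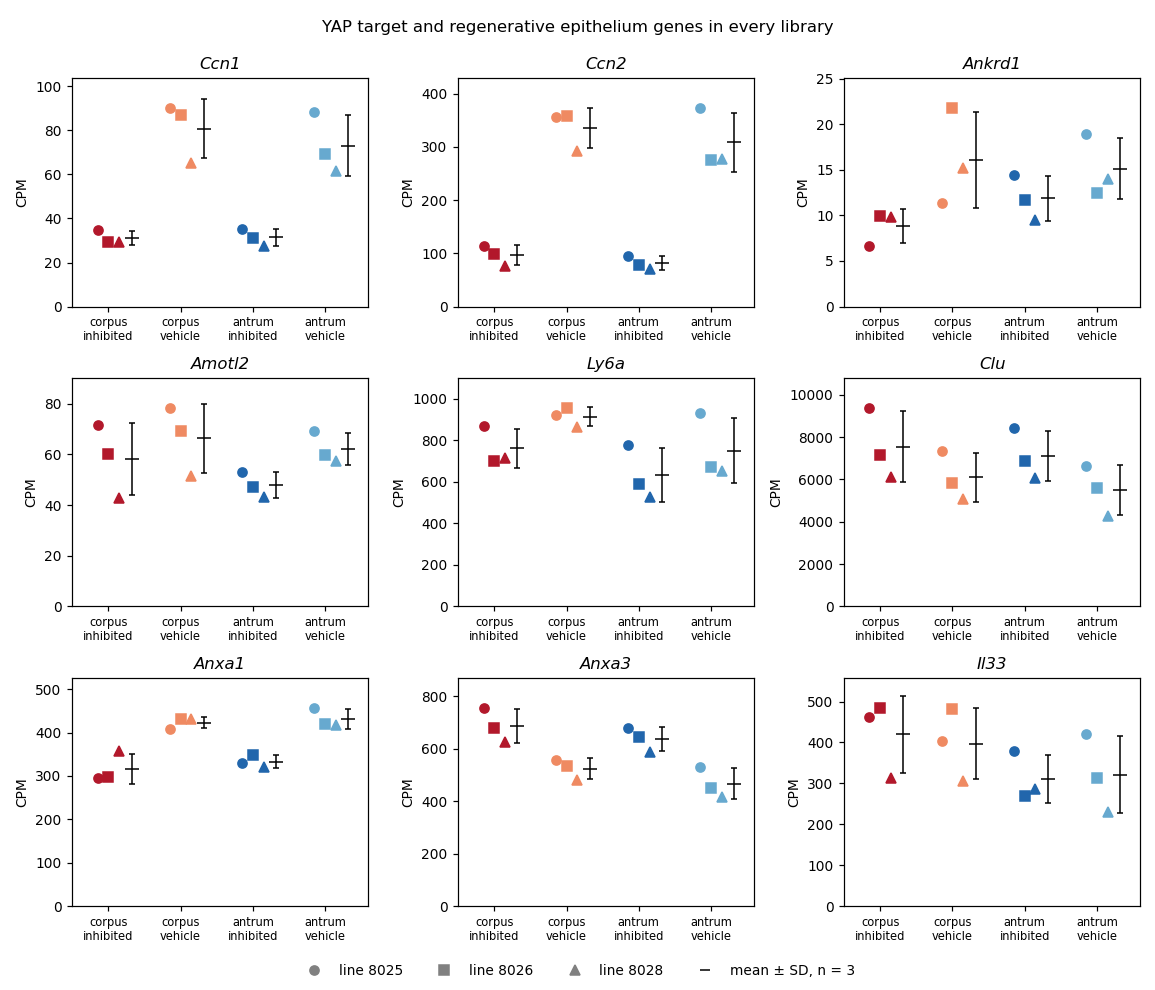
CPM of the 9 genes in every library, by group along the horizontal axis; each symbol is 1 organoid line, and the black mark is the mean ± SD of 3 lines, on linear axes that start at 0. Inhibited libraries of Ccn1 and Ccn2 lie below all vehicle libraries, at 27.6 to 35.3 CPM and 71.0 to 115 CPM, while Clu and Il33 spread by line within each group.

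TEAD factors bind the letters GGAATG, which read CATTCC on the other strand. Upstream sequences of 250 bases before the transcription start were at hand for Ccn1, Ankrd1, Amotl2, Anxa1 and Il33, the last with 2 starts, from the RefSeq promoter table of GRCm38.p6. None was at hand for Ccn2, Ly6a, Clu and Anxa3. The RefSeq starts of Ankrd1, Amotl2 and Anxa1 and the downstream start of Il33 lie inside the gene as GENCODE draws it. So do the whole upstream sequences printed or searched for these starts. The Ccn1 sequence is shown whole, because Ccn1 fell in both regions. It covers chr3:145649986-145650235 on the minus strand and reads 5′ to 3′ towards the gene, with CATTCC in capitals.
Ccn1 upstream sequence: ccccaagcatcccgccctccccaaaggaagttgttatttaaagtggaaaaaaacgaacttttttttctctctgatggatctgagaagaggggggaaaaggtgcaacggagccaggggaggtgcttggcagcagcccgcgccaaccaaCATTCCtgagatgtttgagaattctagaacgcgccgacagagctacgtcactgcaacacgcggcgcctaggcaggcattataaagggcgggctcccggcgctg
The motif lies 103 bases before the start of Ccn1. For the other windows the motif with 10 bases on each side is shown for comparison, again with GGAATG or CATTCC in capitals and read along the gene.
Ccn1 (chr3:145650073-145650098, minus strand): cgccaaccaaCATTCCtgagatgttt
Ankrd1, farther site (chr19:36120039-36120064, minus strand): cactgccaaaGGAATGaccctctcac
Ankrd1, nearer site (chr19:36119952-36119977, minus strand): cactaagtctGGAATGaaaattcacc
Amotl2 (chr9:102717729-102717754, plus strand): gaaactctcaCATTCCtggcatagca
Anxa1 (chr19:20390892-20390917, minus strand): tgcactgaacCATTCCtgtgaggaat
Il33, upstream start (chr19:29924972-29924997, plus strand): aacattggcaGGAATGctattagctt
Il33, downstream start (chr19:29945673-29945698, plus strand): cacaccctcaCATTCCattcatatcg
Ankrd1 carried the motif at 210 and 123 bases before its start, Amotl2 at 65, Anxa1 at 236, and Il33 at 131 and 107 before its upstream and downstream starts. All 6 windows, with 50 bases after the start included in the search on both strands, held the motif, against 14.7% of 32851 promoter windows of the same length (300 bases). Il33 gives 2 of the 6 windows, and Ccn1, Ankrd1 and Amotl2 were taken as known YAP targets. The count is therefore not a test of the set. The AP-1 motif TGANTCA was in none of the 6, against 7.81% of all windows, the TCF and LEF motif CTTTGA was in the Amotl2 window, against 16.0% of all, and its variant CTTTGT was in none, against 18.7%. The TATA box letters TATAAA were in the windows of Ccn1, Anxa1 and both Il33 starts, against 13.6% of all, while the gamma-activated site TTCNNNGAA (8.30% of all) and the CArG box of SRF (1.63%) were in none. These are matches of letters and not measured binding. Among the genes that hold the motif, no fit called Il33 for treatment in either region. Amotl2 passed in neither region in the unblocked fit of all libraries, and in both with the line as a block.

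The Hippo pathway's own nuclear members were measured beside their targets. Of 8 tested effectors, 3 fell in corpus and 4 in antrum and 0 rose, with list medians of -0.18 and -0.34 against -0.04 for all genes in each region. For this and every later list, the unblocked counts stand beside the same shares of all genes. These are 15.5% higher and 15.4% lower in corpus, and 16.3% higher and 13.4% lower in antrum. Tead2, a TEAD factor, averaged 19.0 ± 7.59 CPM in inhibited and 42.1 ± 5.52 CPM in vehicle corpus, and 20.2 ± 2.50 CPM in inhibited and 47.1 ± 7.04 CPM in vehicle antrum (SD, n = 3). Tead1 changed by -0.53 ± 0.0785 and -0.60 ± 0.0786 on the log2 scale, and Vgll4, a cofactor that competes with YAP for TEADs, by -1.03 ± 0.0944 and -1.01 ± 0.0945 in corpus and antrum (edgeR adjusted p 1.8e-05 to 0.00293 for the called effectors). Yap1 itself averaged 99.04 ± 8.66 CPM in inhibited and 112 ± 2.00 CPM in vehicle corpus, and 97.1 ± 2.42 CPM in inhibited and 121 ± 3.598 CPM in vehicle antrum. Yap1 passed in antrum (-0.32 ± 0.0636, edgeR adjusted p 0.00293) and not in corpus (-0.18 ± 0.0634, adjusted p 0.0516), where it passed with the line as a block (0.0295). Wwtr1, which encodes TAZ, stood at -0.18 in both regions, Tead3 at 0.06 and 0.14, Tead4 at 0.20 and 0.02, and Vgll3 at -0.10 and -0.36, and none of these passed (edgeR adjusted p 0.127 to 0.902). With the block Wwtr1 passed in both regions (adjusted p 0.0399 and 0.0428). With the block 5 of 8 effectors were lower in each region, where 23.7% of all genes in corpus and 20.2% in antrum were.

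Among 16 Hippo kinases and regulators 2 rose and 3 fell in corpus, and antrum had 3 higher and 3 lower, with medians of 0.01 in both. Wwc1, which encodes the scaffold KIBRA that activates the kinases, rose by 0.80 ± 0.0870 and 0.53 ± 0.0867 on the log2 scale. The kinase gene Taok3 rose by 0.29 and 0.38, its corpus call being lost with scaling by total counts (adjusted p up to 0.266). Frmd6, another upstream activator, fell by 1.10 ± 0.118 and 1.04 ± 0.118, and Ptpn14, a phosphatase that binds YAP, fell by 0.65 ± 0.0921 and 0.81 ± 0.0927. Map4k4 changed by -0.25 and -0.30, its corpus call being lost without both libraries of line 8025 or of line 8026 (adjusted p up to 0.0889), and Mob1b, a kinase adaptor, rose by 0.23 in antrum, a call lost when both libraries of line 8025 or the vehicle libraries of lines 8025 and 8028 were left out, or with total counts (up to 0.194).

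In the unblocked fit, other genes often listed as YAP targets were called at about the rate of all genes. Of 18 tested, 3 rose and 3 fell in corpus, while antrum had 2 higher and 3 lower, where 15.5% of all genes rose and 15.4% fell in corpus and 16.3% and 13.4% in antrum, and the medians were -0.20 and -0.09 on the log2 scale. Rbms3, an RNA-binding protein, averaged 3.37 ± 1.06 CPM in inhibited and 15.1 ± 1.65 CPM in vehicle corpus, and 3.77 ± 0.389 CPM in inhibited and 12.4 ± 2.99 CPM in vehicle antrum (SD, n = 3; edgeR adjusted p 4.1e-05 and 0.000181). Arhgef17, a GTPase exchange factor, fell by 0.83 ± 0.154 and 1.03 ± 0.155, and Ptpn14 is on this list too. Dock5, a Rac activator, rose by 0.57 ± 0.0647 and 0.52 ± 0.0649. Myof rose by 0.37 and 0.40, and Ajuba, a scaffold that restrains the Hippo kinases, by 0.29 in corpus, but these calls were fragile. Myof was lost in 9 of 24 alternative fits in corpus, among them without inhibited line 8025 or 8026 or vehicle line 8026 or 8028, and in 6 of 25 in antrum, among them without inhibited line 8025 or vehicle line 8026 or 8028 (adjusted p up to 0.159 and 0.104). Ajuba was lost in 7 of 24, among them without vehicle line 8026 and without both libraries of line 8026 or 8028 (up to 0.362). With the line as a block 5 rose and 8 fell in corpus, where 19.8% of all genes rose and 23.7% fell. Antrum then had 4 higher and 5 lower, against 20.6% and 20.2% of all genes. With total counts 1 rose and 6 fell in corpus, where 1338 of all 16152 genes rose and 3727 fell.

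**Figure D2:**
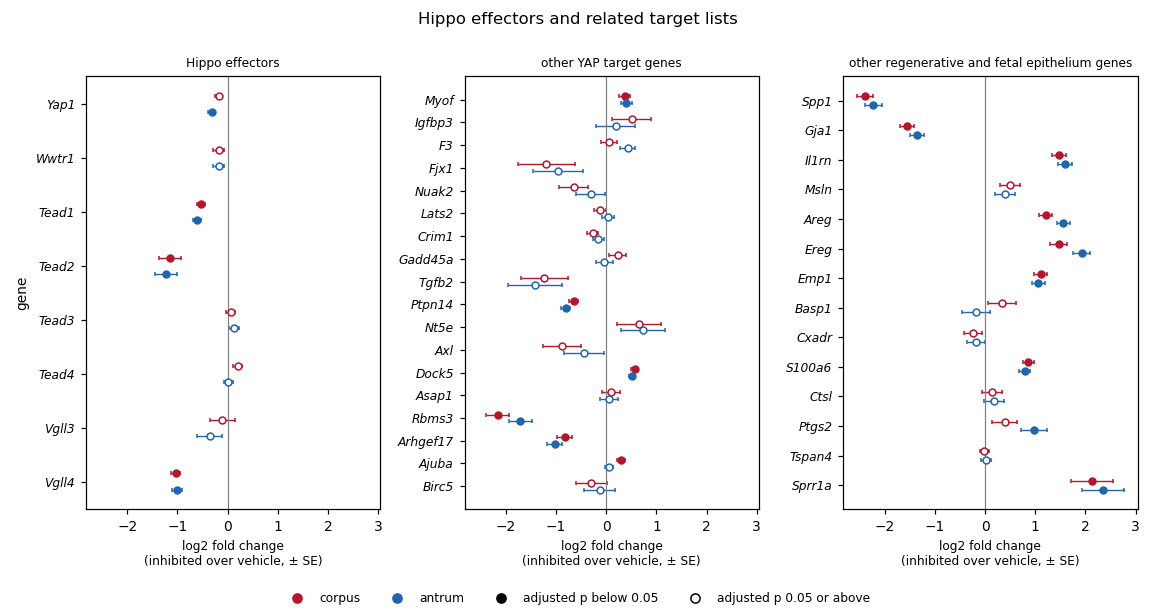
Log2 fold change of inhibited over vehicle (horizontal axis, ± SE) for genes of the lists of Hippo effectors, other YAP targets and other regenerative genes, in corpus and antrum; filled symbols passed an adjusted p of 0.05 in edgeR. Called effectors, among them Tead2 and Vgll4, lie below 0, while called genes of the other lists lie on both sides, from Spp1 at -2.39 to Sprr1a at 2.35.

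The regenerative epithelium genes did not share 1 direction. Anxa3 rose and Anxa1 fell in both regions, Clu stood higher and Ly6a lower in every inhibited line, and Il33 showed no common direction. Clu and Ly6a did not pass in the unblocked fit of all libraries, and passed in both regions with the line as a block. In corpus 5 of the 9 genes, and in antrum 5 of the 9, had groups that did not overlap (40.8% and 48.7% of all tested genes). These were Ccn1, Ccn2, Anxa1 and Anxa3 in both, Ankrd1 in corpus and Amotl2 in antrum.

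Clu (chr14:65968483-65981547, plus strand) encodes clusterin, a secreted chaperone that marks revival stem cells of the injured intestine. In corpus it stood at 9379.6, 7166 and 6103 CPM when inhibited, against 7356, 5848 and 5079 CPM in vehicle. In antrum it stood at 8417, 6869.9 and 6059 CPM when inhibited, against 6651, 5611 and 4267 CPM in vehicle. Line 8025 was highest and line 8028 lowest in all 4 groups, and the groups overlapped although every line held more Clu when inhibited. The log2 change was 0.31 in corpus (95% interval -0.14 to 0.76) and 0.37 in antrum (-0.08 to 0.82), and neither passed (edgeR adjusted p 0.285 and 0.204). With the line as a block both passed, at 0.30 and 0.38 (adjusted p 0.00418 and 0.0012), and they still did without any single line. With the block and scaling by total counts the corpus value did not pass (0.268).

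Ly6a (chr15:74994877-74998031, minus strand) encodes the surface protein Sca-1, a marker of fetal-like and regenerating gut epithelium. Corpus libraries held 871, 703 and 715 CPM when inhibited, against 923, 957 and 866 CPM in vehicle. Antral libraries held 779.6, 592 and 528 CPM when inhibited, against 931, 671 and 651 CPM in vehicle. The groups overlapped in both regions, in corpus only through inhibited line 8025, which lay just above vehicle line 8028. The log2 change was -0.26 in corpus (95% interval -0.62 to 0.10) and -0.25 in antrum (-0.60 to 0.11), and neither passed (edgeR adjusted p 0.250 and 0.282). With the line as a block both passed (adjusted p 0.0128 and 0.0199), a call lost without corpus line 8026 (0.125) and without any 1 antral line (0.0582 to 0.126). Scaled by total counts the corpus value was -0.42 and passed unblocked (adjusted p 0.0355). Reads can be shared between Ly6a and its close relatives, so its level is uncertain.

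Anxa1 (chr19:20373428-20390944, minus strand), a calcium-dependent membrane-binding protein known to limit inflammation and aid wound repair, fell. It stood at 296, 297 and 356 CPM in inhibited corpus libraries, against 408, 430.2 and 431 CPM in vehicle. It stood at 331, 349 and 319.9 CPM in inhibited antral libraries, against 457, 419 and 418 CPM in vehicle. All inhibited libraries lay below all vehicle libraries, with line 8028 the nearest in corpus. Anxa1 fell by 0.42 ± 0.0779 on the log2 scale in corpus and by 0.37 ± 0.0779 in antrum (edgeR adjusted p 0.00186 and 0.00386). In antrum the call did not hold when both libraries of line 8025 were left out (adjusted p 0.0593), nor without the vehicle libraries of lines 8025 and 8028, those rich in ribosomal-like counts (0.0810).

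Anxa3 (chr5:96793339-96845966, plus strand), another annexin, went the other way. Corpus libraries held 757, 681 and 628 CPM when inhibited, against 557, 535 and 482 CPM in vehicle. Antral libraries held 681, 645 and 589.7 CPM when inhibited, against 531, 452 and 417 CPM in vehicle. Every inhibited library lay above every vehicle library, and line 8025 was highest and 8028 lowest in each group. Anxa3 rose by 0.39 ± 0.103 on the log2 scale in corpus and by 0.45 ± 0.103 in antrum (edgeR adjusted p 0.0133 and 0.00642). The corpus call was lost with scaling by total counts (adjusted p 0.0852) and when both libraries of line 8025 (0.0622) or 8026 (0.0788) were left out, and the antral call without both libraries of line 8026 (0.0667).

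Il33 (chr19:29925114-29960718, plus strand), the alarmin gene, differed more between lines than between treatments. In corpus it stood at 462, 485 and 313 CPM when inhibited, against 404, 482 and 306 CPM in vehicle. In antrum it stood at 379, 269 and 285 CPM when inhibited, against 419.9, 313 and 231 CPM in vehicle. The groups overlapped fully, and the within-line log2 ratios were 0.01 to 0.19 in corpus and -0.22 to 0.30 in antrum. The fitted change was 0.08 in corpus (95% interval -0.45 to 0.61) and -0.05 in antrum (-0.58 to 0.49), and neither passed (edgeR adjusted p 0.837 and 0.908). No alternative fit called Il33, and its value ran from -0.08 to 0.28 in corpus and -0.23 to 0.21 in antrum over them.

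**Figure D3:**
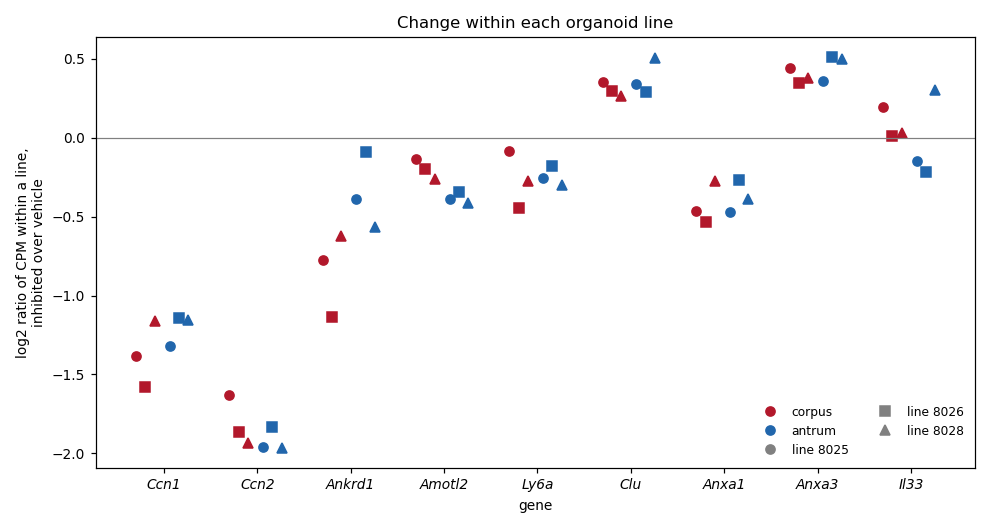
Log2 ratio of CPM, inhibited over vehicle, within each organoid line (vertical axis) for the 9 genes, coloured by region and shaped by line. All 6 lines lie below 0 for Ccn1, Ccn2, Ankrd1, Amotl2, Ly6a and Anxa1 and above 0 for Clu and Anxa3, while Il33 lies between -0.22 and 0.30.

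**Figure D4:**
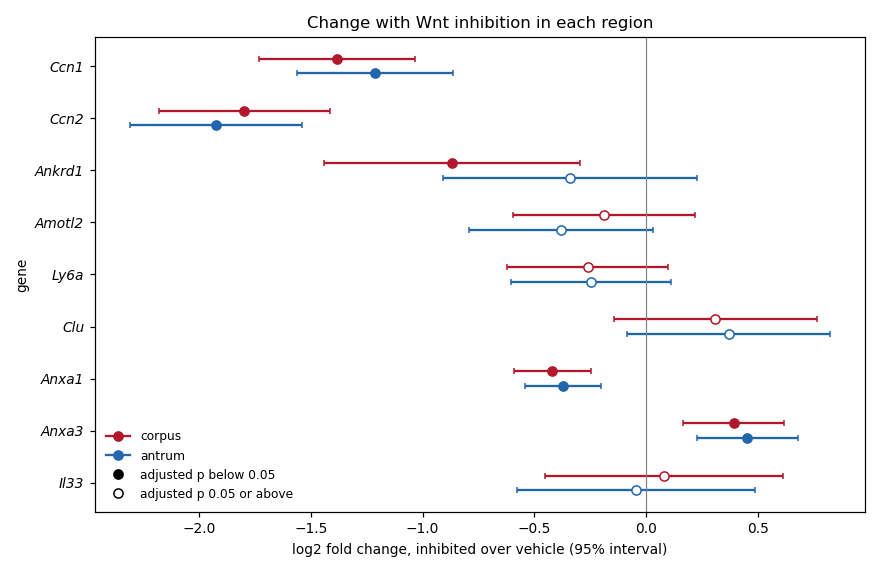
Log2 fold change of inhibited over vehicle with its 95% interval (horizontal axis) for the 9 genes in corpus and antrum; filled symbols passed an adjusted p of 0.05 in edgeR. Ccn2 lies farthest from 0, at -1.80 and -1.92, and the intervals of Amotl2, Ly6a, Clu and Il33 include 0 in both regions.

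Relatives of the 9 genes set these values in their families. Ccn1 and Ccn2 were the only CCN genes with enough counts to test: Ccn5 and Ccn6 had 0 counts in every library, which allows up to 0.177 CPM, and Ccn3 and Ccn4 reached at most 0.263 and 0.166 CPM. Of the other angiomotins, Amot averaged 20.99 ± 2.59 CPM in inhibited and 35.5 ± 1.27 CPM in vehicle corpus and 24.9 ± 2.63 CPM in inhibited and 39.7 ± 4.27 CPM in vehicle antrum (SD, n = 3), and fell in both (edgeR adjusted p 0.000432 and 0.000891). Amotl1 fell by 0.62 ± 0.172 in corpus and, in antrum, by 0.73 ± 0.172 (adjusted p 0.0178 and 0.00813). The Amotl1 call was lost in corpus without inhibited line 8026, vehicle line 8025 or 8028, or both libraries of line 8026 or 8028 (adjusted p up to 0.111), and in antrum without both libraries of line 8025 or the vehicle libraries of lines 8025 and 8028 (up to 0.253). Ankrd2 had 0 counts, and Ankrd23, at -0.32 and 0.00, passed in neither region (adjusted p 0.165 and 1.00).

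In the annexin family Anxa1 and its called relatives went opposite ways. Of 12 tested annexins, 7 rose in corpus and 9 in antrum, Anxa3 among them, where 15.5% and 16.3% of all genes rose. Anxa1 was the 1 that fell in each region, and the medians were 0.36 and 0.44 against -0.04 for all genes. Anxa10, an annexin of gastric surface cells, averaged 872 ± 118 CPM in inhibited and 411 ± 51.5 CPM in vehicle corpus, and 929.8 ± 71.2 CPM in inhibited and 392 ± 47.3 CPM in vehicle antrum. Anxa2 rose by 0.75 ± 0.0922 and 0.68 ± 0.0921 and Anxa11 by 0.64 ± 0.0684 and 0.66 ± 0.0685 on the log2 scale (edgeR adjusted p 3.9e-05 to 0.000231). Anxa7 rose by 0.37 ± 0.0676 in corpus, a call lost with total counts (adjusted p up to 0.0560), and by 0.45 ± 0.0677 in antrum. Anxa13, at no more than 0.704 CPM, rose in antrum (log2 3.26 ± 0.653), a call lost without the vehicle libraries of lines 8025 and 8028 (0.0724). With scaling by total counts 3 annexins were higher and 1 lower in corpus, and in antrum 8 were higher and 1 lower.

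The Ly6 family also went both ways. Of 10 tested members, 1 rose and 3 fell in corpus, while antrum had 2 higher and 2 lower, with medians of -0.02 and -0.05, and with the line as a block 1 rose and 5 fell in corpus, while antrum had 3 higher and 4 lower. Ly6d, an epithelial member, held 199, 122 and 70.6 CPM in inhibited corpus, against 64.2, 52.0 and 37.0 CPM in vehicle. It held 87.0, 73.6 and 55.2 CPM in inhibited antrum, against 12.4, 8.96 and 22.1 CPM in vehicle. Ly6d rose in both (edgeR adjusted p 0.0205 and 0.0015), but in corpus the call was lost in 10 of 24 alternative fits, among them without inhibited line 8025, vehicle line 8026 or 8028, or both libraries of line 8025 or 8026 (up to 0.186). Ly6c1 changed by -0.88 ± 0.169 and -0.69 ± 0.170, its antral call being lost without vehicle line 8025, without both libraries of line 8028, or leaving out the vehicle libraries of lines 8025 and 8028 (up to 0.289). The calls of Ly6e (-0.58 and -0.55), Ly6c2 in corpus (-1.20) and Ly6m in antrum (1.78) were each lost without single libraries or lines, in 9 of 24, 9 of 25, 13 of 23 and 5 of 25 alternative fits.

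In the interleukin 1 family, to which Il33 belongs, 3 of 6 tested genes rose in each region and 1 fell in corpus, with medians of 1.22 and 1.34. Of all genes 15.5% rose and 15.4% fell in corpus, and 16.3% rose in antrum. Il18, another epithelial cytokine, averaged 33.6 ± 1.67 CPM in inhibited and 9.96 ± 1.62 CPM in vehicle corpus, and 35.5 ± 3.14 CPM in inhibited and 8.96 ± 1.33 CPM in vehicle antrum (SD, n = 3). The receptor gene Il1r1 rose by 1.72 ± 0.103 and 1.81 ± 0.104 and the receptor antagonist gene Il1rn by 1.47 ± 0.139 and 1.59 ± 0.140 on the log2 scale (edgeR adjusted p 1.0e-06 to 2.4e-05). Il1rl1, which encodes the IL-33 receptor, stood at no more than 0.226 CPM, near the limit of detection. Il1rap, the shared receptor chain, fell by 1.24 ± 0.323 in corpus, a call lost without inhibited line 8025, vehicle line 8028 or both libraries of line 8026 (adjusted p up to 0.116), and in antrum it stood at -0.77 (0.0998). In the blocked fit 4 of the 6 rose and 1 fell in each region, Il1a passing in both (adjusted p 0.000117 and 5.7e-05) and Il1rap in antrum (0.0204).

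**Figure D5:**
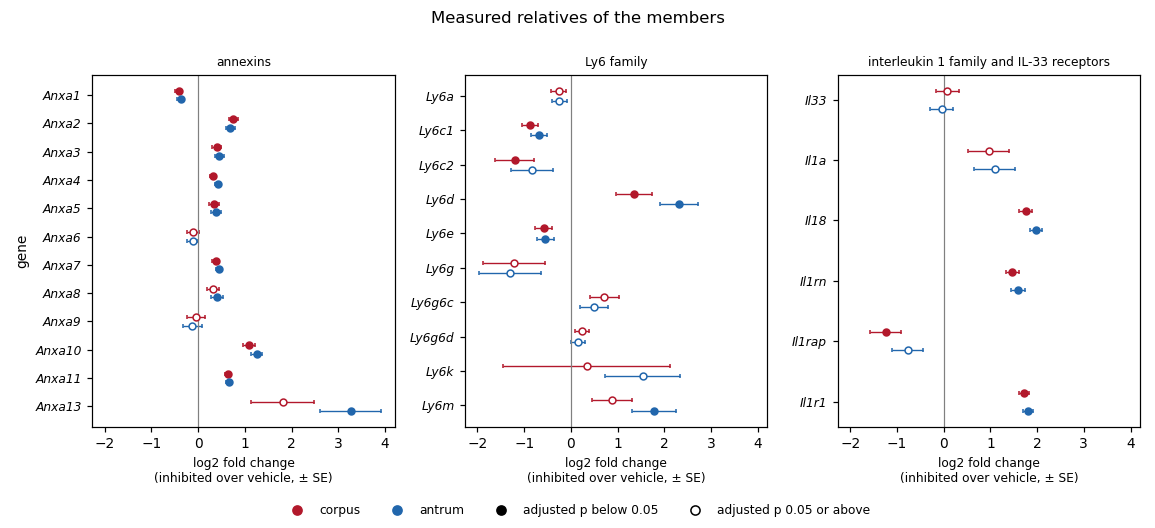
Log2 fold change of inhibited over vehicle (horizontal axis, ± SE) for tested annexins, Ly6 genes and interleukin 1 family genes in corpus and antrum; filled symbols passed an adjusted p of 0.05 in edgeR. Anxa1 lies below 0 among annexins that mostly lie above it, and Il33 lies near 0 beside Il18 and Il1r1, at 1.72 to 1.98.

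Other genes listed with regenerating and fetal-like epithelium also split by direction. Of 15 tested, 6 rose and 2 fell in corpus, where 15.5% of all genes rose and 15.4% fell. Antrum had 7 higher and 3 lower, against 16.3% and 13.4% of all genes, and the medians were 0.39 in both. Sprr1a, a cornified envelope protein of injured epithelium, held 697, 633 and 243 CPM in inhibited corpus, against 143, 134 and 83.1 CPM in vehicle. The EGF receptor ligands Ereg and Areg rose by 1.47 ± 0.166 and 1.21 ± 0.121 in corpus and by 1.93 ± 0.171 and 1.56 ± 0.122 in antrum. Spp1, osteopontin, averaged 161 ± 32.6 CPM in inhibited and 847 ± 125 CPM in vehicle corpus, and 231 ± 22.6 CPM in inhibited and 1082 ± 149 CPM in vehicle antrum. Gja1, the gap junction protein connexin 43, fell by 1.55 ± 0.139 and 1.35 ± 0.139. These calls had edgeR adjusted p of 3.7e-06 to 0.00254 and were kept in every alternative fit. With the block 8 rose and 4 fell in corpus, while antrum had 9 higher and 4 lower.

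Genes of gastric metaplasia and injury, the gland-base response of damaged stomach, mostly fell: 7 of 9 in each region, with 1 rising and medians of -1.89 and -1.39. Of all genes 15.4% fell in corpus and 13.4% in antrum. Tff2, a trefoil peptide, was the 1 that rose, by 2.26 ± 0.359 and 2.89 ± 0.369, while the gland mucin Muc6 fell by 4.04 ± 0.376 and 3.38 ± 0.358. Aqp5, a water channel of gland-base cells, fell by 2.92 ± 0.206 and 2.37 ± 0.201, and Sox9 by 2.11 ± 0.284 and 1.79 ± 0.280. Gkn3 fell by 2.31 ± 0.202 and 1.34 ± 0.195, and the chloride channel Cftr by 1.89 ± 0.310 and 1.58 ± 0.313, in corpus and antrum. With the block 2 of the list rose in each region. The edgeR adjusted p ran from 4.0e-06 to 0.00294. Sox9 is a known Wnt target.

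Lists for other routes to the same genes differed in direction. Any part of these routes in the changes of the 9 genes was not tested. In the SRF and actin programme, which also drives Ccn1, Ccn2 and Ankrd1, most called genes rose, while 6 in corpus and 4 in antrum were not called. Among 11 tested, 4 rose and 1 fell in corpus, where 15.5% of all genes rose and 15.4% fell. Antrum had 6 higher and 1 lower, against 16.3% and 13.4% of all genes, and the medians were 0.21 and 0.29. Actb rose by 0.66 ± 0.0945 and 0.56 ± 0.0944 and Fos by 0.63 ± 0.0932 and 0.58 ± 0.0928 on the log2 scale (edgeR adjusted p 0.000336 to 0.00106). Actg1 rose by 0.46 and 0.51, lost in corpus with total counts or only the 6 corpus libraries and in antrum without the vehicle libraries of lines 8025 and 8028 (adjusted p up to 0.109). Myl9, the 1 that fell in each region, had 0 counts in all inhibited libraries. It averaged 0.449 CPM in vehicle corpus and 0.159 CPM in vehicle antrum, near the limit of 3 counts. Tpm1 rose by 0.25 and 0.29 and Tagln by 0.98 in antrum, and the calls of Tpm1 in corpus and Tagln in antrum were lost in 8 of 24 and 9 of 25 alternative fits, single libraries left out among them. With total counts 2 rose in corpus and 4 in antrum.

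Of 7 TGF-beta targets, a pathway that also drives Ccn2, 2 rose and 1 fell in corpus and 1 rose in antrum, with medians of 0.02 in both, and with the block 1 rose and 1 fell in corpus. Among these were Ltbp1 (0.87 and 0.97) and Skil (-0.21 in corpus), whose calls were lost in 5 of 24, 4 of 25 and 14 of 24 alternative fits, single libraries left out among them. Of 13 interferon-induced genes, a class that Ly6a belongs to, 1 rose and 3 fell in corpus, while antrum had 3 higher and 2 lower, with medians of -0.26 and 0.05. Tap1, a peptide transporter, stood at -0.92 ± 0.199 in corpus, which did not pass when both libraries of line 8026 were left out (adjusted p 0.0679). The calls of Stat2, Irf1, Bst2, Rsad2 and antral Tap1 were lost in 6 to 14 alternative fits each, single libraries left out among them. With the block 5 interferon-induced genes fell in each region, and with total counts 0 rose in either, 5 fell in corpus and 4 in antrum.

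The level of each gene was then set against the others per kilobase of exon, as CPM per kilobase. Clu was the most abundant of the 9 in every group, at 2197 ± 486 in inhibited and 1773 ± 337 in vehicle corpus and 2070.2 ± 348 in inhibited and 1603 ± 348 in vehicle antrum (SD, n = 3), which gave it ranks 10 to 13 among all tested genes. Ly6a came second, at 633 ± 77.9 in inhibited and 759 ± 38.2 in vehicle corpus and 525 ± 109 in inhibited and 623 ± 130 in vehicle antrum. In vehicle organoids Anxa1, Anxa3, Il33 and Ccn2 followed at 108 to 148 CPM per kilobase, each overlapping its neighbour in that order. In inhibited organoids Anxa3 led these at 189 ± 17.9 in corpus and 175 ± 12.6 in antrum, clear of Il33 and Anxa1, which overlapped each other. Ccn2 ranked 1760 among the tested genes in inhibited and 357 in vehicle corpus, and 2076 in inhibited and 393 in vehicle antrum. Ccn1, Amotl2 and Ankrd1 took the last places in every group, without overlap between neighbours.

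The regions were compared next, antrum over corpus within each treatment. None of the 9 genes passed in edgeR, 0 in vehicle and 0 in inhibited organoids, and 0 had an unadjusted p below 0.05. DESeq2 and limma-voom also called 0. Of all genes 0.198% passed in vehicle and 0.0619% in inhibited organoids, and the groups of the 9 overlapped in each case, against 22.5% and 11.8% of genes whose groups did not. In vehicle organoids the log2 differences ran from -0.31 for Il33 (95% interval -0.84 to 0.22) to 0.03 for Anxa1 (-0.14 to 0.20), with Ly6a at -0.29 (-0.64 to 0.07). In inhibited organoids they ran from -0.43 for Il33 (-0.97 to 0.10) to 0.43 for Ankrd1 (-0.14 to 1.01). Without both libraries of corpus line 8028 the inhibited difference of Amotl2 was -0.47 and passed (edgeR adjusted p 0.0249), and over all libraries it was -0.28 (adjusted p 0.639).

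The difference in response, antral change minus corpus change, was tested as an interaction. In the unblocked fits none of the 9 genes passed in edgeR (0 called, 0 with an unadjusted p below 0.05, 0 by DESeq2 and 0 by limma-voom), where 0.00619% of all genes did. The differences ran from -0.19 for Amotl2 (95% interval -0.77 to 0.39) to 0.53 for Ankrd1 (-0.28 to 1.33), with Ccn2 at -0.13 (-0.65 to 0.40) and Ccn1 at 0.17 (-0.32 to 0.65). With the line as a block the errors were smaller, at 0.50 ± 0.178 (SE) for Ankrd1 and -0.19 ± 0.0785 for Amotl2. None of the 9 passed with the block either (edgeR adjusted p 0.611 to 0.986). The Ankrd1 call in corpus and not in antrum is therefore not shown to differ between regions.

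The lines differed in their own right. Line 8025 was the highest and line 8028 the lowest of 3 in all 4 groups for Amotl2, Clu and Anxa3, which held for 0.625% of all tested genes, and line 8025 was highest in all 4 for Ccn1 as well. For Anxa1 line 8025 was highest in 1 group, and for Ankrd1 in 2. A shared number is not known to mark the same mouse in both regions. Over all tested genes, libraries of the same number deviated with correlations of -0.104 to 0.277 between regions. The SD of log2 CPM between lines was 0.27 to 0.31 for Clu in corpus, while the SD of its within-line ratios was 0.04. For Amotl2 in corpus these were 0.31 to 0.37 and 0.07, and for Ankrd1 in corpus 0.33 to 0.47 and 0.27.

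The 2 genes whose log2 CPM profile over the 12 libraries lay nearest to each of the 9 were listed among 11030 candidates at 5 CPM or more, by root mean square distance after centring. Nearest to Ccn1 were Tcaf1 (0.126) and Fn1, fibronectin (0.159), and nearest to Ccn2 were Cpn1 (0.188) and Chit1 (0.217). Ankrd1 had Tmem237 and Chek2 (0.261 and 0.262), Amotl2 had Sidt2 and Nid2 (both 0.112), and Ly6a had B2m, the light chain of class I major histocompatibility molecules, and Thnsl1 (0.117 and 0.121). Clu had Ikbke and Fbxw9 (0.0977 and 0.111), Anxa1 had Nek4 and Aopep (0.0433 and 0.0438), Anxa3 had Bcar3 and Anxa5 (0.0547 and 0.0631), and Il33 had Prss22 and Osbpl3 (0.135 and 0.177). Within the 9, Clu and Anxa3 were each other's nearest (0.142), as were Amotl2 and Ly6a (0.194) and Ccn1 and Ccn2 (0.320). Other genes lay nearer in each case. Among the candidates Anxa3 ranked 9 for Clu, and Clu ranked 437 for Anxa3. Ly6a ranked 247 for Amotl2 and Amotl2 220 for Ly6a, while Ccn2 ranked 147 for Ccn1 and Ccn1 17 for Ccn2. The log2 change of Fn1 was -1.53 ± 0.172 in corpus and, in antrum, -1.39 ± 0.171 (edgeR adjusted p 7.4e-05 and 0.00013).

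Markers of other cells were measured because Ccn1, Ccn2, Ly6a and Il33 are also strong in stroma and endothelium. Summed over 8 fibroblast genes the level was 0.728 to 1.32 CPM in inhibited and 0.799 to 1.48 CPM in vehicle corpus, and 0.313 to 0.560 CPM in inhibited and 1.29 to 2.24 CPM in vehicle antrum, while Ccn2 held at least 71.0 CPM. Of these 2 were tested, and Col1a1 and Vim fell in antrum (log2 -1.74 ± 0.332 and -2.66 ± 0.673), calls that were lost without the vehicle libraries of lines 8025 and 8028, and for Vim also without both libraries of either line. The sum of 5 endothelial genes, mostly Tek, was 7.82 to 11.1 CPM in inhibited and 3.63 to 17.2 CPM in vehicle corpus, and 2.89 to 6.02 CPM in inhibited and 2.42 to 6.61 CPM in vehicle antrum, with Emcn at 0. The sum of 6 leukocyte genes was 0.677 to 0.907 CPM in inhibited and 0.0957 to 0.593 CPM in vehicle corpus, and 0.672 to 1.02 CPM in inhibited and 0.118 to 0.417 CPM in vehicle antrum, with Adgre1 at 0. The sum of 5 muscle genes was 1.29 to 2.77 CPM over all libraries. Squamous genes of the forestomach summed to 161 to 355 CPM in inhibited and 59.6 to 106 CPM in vehicle corpus, and to 186 to 304 CPM in inhibited and 61.0 to 93.4 CPM in vehicle antrum, nearly all of it Krt4, with the basal factor Trp63 at no more than 0.231 CPM. Gastric epithelial genes summed to 15959 to 18285 CPM in inhibited and 8228 to 10099 CPM in vehicle libraries. The part of these shifts in the changes of the 9 genes was not tested.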

How the data were processed

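Per the labels, polyA RNA of 12 gastric organoid libraries was sequenced. The authors deposited 1 table of expected counts, not normalized, with a row per gene. Tools listed in the submitters' processing notes are RSEM 1.3.3, STAR 2.7.8a, FastQC 0.11.8 and cutadapt 2.3, with build GRCm38. Rounding the expected counts changed no value. A total of 5 rows that name no mouse gene (2 counts) were left out.

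Genes were filtered with filterByExpr and tested in edgeR 4.0.16 (TMM scaling, robust quasi-likelihood fit of all 4 groups, 8 residual degrees of freedom, two-sided, Benjamini-Hochberg threshold 0.05). CPM use TMM-scaled totals, and CPM per kilobase the exon-union length of GENCODE. DESeq2 1.42.0 and limma 3.58.1 were alternatives. The scripts were tested on simulated counts. Libraries of the same line deviated together within a region (correlation 0.157 to 0.544), so lines pair the treatments, and results with the line as a block are given for the 9 genes where they change a call, and for lists as counts. No replicates were alike within counting noise (chi-square of 10.2 to 287 per degree of freedom). Precision is limited by 3 lines a group; the 3-count limits cover counting error only. Genes were named by a rule on rank among the called genes of each list. The 9 genes and all lists were chosen with earlier results of these data known. Some list genes count in their lists but are not reported here.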

Additional observations from a re-analysis of the deposited data

How the results depend on the processing

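Of 1152 recomputed values of the 9 genes, 1033 kept their direction and their side of the threshold, 12 lost and 42 gained a call, 65 uncalled values moved across 0, and 0 called values reversed. Ccn2 ran from -1.97 to -1.62 in corpus and -2.06 to -1.75 in antrum, Ccn1 from -1.54 to -1.27 and -1.32 to -1.04. Of the 9, 1 was called higher in each region over all libraries. In corpus that count was 0 with total counts, without both libraries of line 8025 and without both of line 8026, and in antrum 0 without both of line 8026. With the replicate block, lines being paired within a region, 2 were higher in each region, also with DESeq2's or upper quartile scaling and without any 1 line, and in antrum with total counts. The count lower in antrum was 6 with the block, also with upper quartile scaling or total counts, and 5 with DESeq2's scaling or without line 8026, against 3 over all libraries unblocked. The count lower in inhibited antrum against corpus was 1 without both libraries of corpus line 8028. Blocked fits with another scaling or a line left out were added after seeing the data. Total counts shifted the median of all genes by -0.16 in corpus and -0.07 in antrum. With upper quartile scaling 43.6% of antral calls were higher, against 55.0%. With libraries left out only in the region compared, genes called ran from 1338 to 3509 higher and 1141 to 5567 lower in corpus, and from 1638 to 3515 higher and 903 to 4162 lower in antrum. With the block or total counts 5 Hippo effectors were lower in corpus, against 3. Beyond fewer libraries where some were left out, the cause was not tested.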
